A study of Homo sapiens with 6 samples.

Results

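Wnt and beta-catenin pathway genes are described here in 6 RNA-seq libraries, 2 each from groups labelled sh4, sh1 and NC. The set was given as 10 gene IDs of the 54532 in each file: Wnt5a and Wnt9a among the ligands, the co-receptor Lrp6, beta-catenin itself (Ctnnb1), the DNA-binding partners Tcf7 and Lef1, the feedback inhibitors Axin2 and Nkd1, and the growth genes Myc and Ccnd1. All 10 were found in all 6 files. By the labels, every library is total RNA of A549, a long-established line of human lung adenocarcinoma cells, and the series concerns a DSTY knockdown set against an NC group. Treatment, time and vector are not given in the labels, which also do not spell out sh4, sh1 or NC, and reading sh4 and sh1 as knockdown groups is an assumption from the series title. Nothing in the labels says that the libraries of a group came from separate cultures, so p-values measure the spread between these libraries, which may be technical.

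These IDs go against the labelled organism. Ensembl lists mouse genes under the prefix that all 54532 of them carry, and 0 carry the human one, so the organism of the RNA is unresolved and the gene names used below are Ensembl's mouse names for these 10 IDs. Of the IDs, 0 matched the human name tables used here. A549 could therefore not be checked against epithelial markers, the gene DSTY was not analysed, and the other Wnt pathway genes on the lists drawn up for this set were not analysed either. Each group is called by its label.

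In the canonical Wnt pathway, a secreted Wnt protein binds a Frizzled receptor together with the co-receptor Lrp5 or Lrp6. This stops a destruction complex built on Axin and Apc from marking beta-catenin for degradation, and beta-catenin then enters the nucleus and activates genes with TCF/LEF factors. The pathway takes part in lung development and in the upkeep of alveolar epithelial progenitors. Beta-catenin also links E-cadherin to actin at adherens junctions, and much of its control acts on the protein, which RNA levels do not show.

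Levels are the authors' FPKM, fragments per kilobase of gene, so they can be compared between genes. Their scaling between libraries matched size factors, the median over IDs of a library's reads relative to all libraries, and not total reads. Whole reads were recovered from these values and came to between 14999785 and 18011797 per library. The 10 genes together held 0.295% and 0.291% of the recovered reads in sh4, 0.214% and 0.217% in sh1, and 0.227% and 0.223% in NC, most of them from Ctnnb1, Ccnd1 and Myc. Of the 10 genes, 6 were at 1 FPKM or more in every library, and Wnt9a passed the filter (1 FPKM in at least 2 libraries) through its NC libraries alone. Axin2, Lef1 and Nkd1 did not pass it and are described from their reads. In bulk RNA, fewer cells of a type and less RNA per cell cannot be told apart.

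The members were higher and lower in different patterns in sh4 and sh1. Ctnnb1 was higher than in NC in both sh4 and sh1, while Myc and Lrp6 were lower in both. Wnt9a was also lower in both, which was built in, since it passed the filter through NC alone. Ccnd1 and Wnt5a were higher in sh4 and lower in sh1. Tcf7 was lower in sh1 and did not pass the test in sh4.

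Among the 6 genes at 1 FPKM or more in every library, 3 rose, 2 fell and 1 did not pass the test in sh4 against NC (limma on log2(FPKM + 1), Benjamini-Hochberg adjusted p below 0.05). Of all 12755 IDs tested, 68.2% were called in that comparison, 35.0% as higher and 33.2% as lower. In sh1 against NC, 1 of the 6 rose and 5 fell, where 65.5% of all IDs were called, 32.4% as higher and 33.2% as lower. The median log2 fold change of the 6 genes was 0.31 in sh4 and -0.60 in sh1, against 0.01 and -0.01 over all IDs. Their median absolute log2 change was 0.61 in sh4 and 0.71 in sh1, and that of all IDs was 0.37 and 0.36. The IDs were not matched to the 6 genes in level, and this scale understates changes of low genes. Shares of IDs with a larger change, given below, carry the same limit. With most IDs called, a call on a single gene is close to the background of these data, and the sizes and directions carry the description. The share of all IDs whose groups do not overlap was not computed. Groups described below as not overlapping can therefore not be called particular to these genes. None of the 7 tested genes changed against NC by as much as 1 log2 unit on this scale, in sh4 or in sh1, where 10.1% and 9.96% of all IDs were called with at least that change. Tcf7 in sh1 passed that size with a pseudocount of 0.1 (-1.05), with libraries scaled to the same FPKM sum (-1.01), without NC replicate 1 (-1.07) and by voom, limma's method for reads, on the recovered reads (-1.06). Wnt9a passed it in both groups with that pseudocount and by voom, but its fall was built in, since it passed the filter through NC alone. Shares of all IDs with such a change were not computed under these settings. Both comparisons use the same 2 NC libraries.

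**Figure D1:**
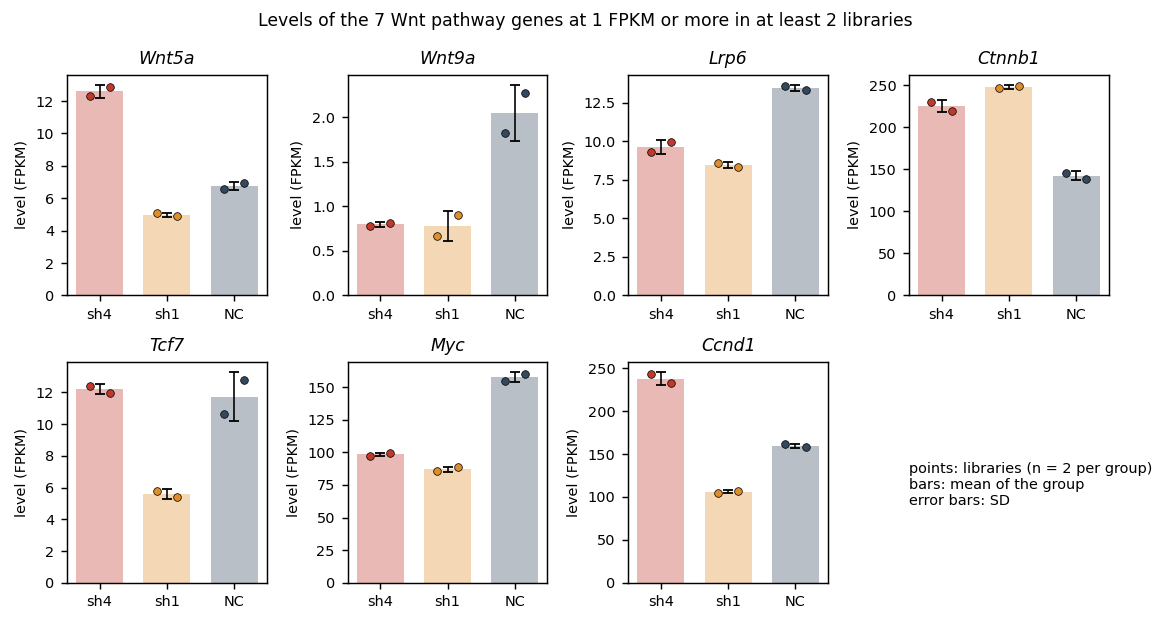
Level in FPKM (y axis, from 0) of the 7 genes that passed the filter, by group (x axis), with points for the 2 libraries of a group, bars for their mean and error bars for the SD. Ctnnb1 lies lowest in NC, Myc, Lrp6 and Wnt9a lie highest in NC, and Ccnd1 and Wnt5a run from sh4 (highest) over NC to sh1 (lowest).

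Wnt5a (ENSMUSG00000021994) encodes a ligand best known for beta-catenin-independent signalling in cell polarity and movement. Its level was 12.3 and 12.9 FPKM in sh4, 5.08 and 4.89 FPKM in sh1, and 6.57 and 6.94 FPKM in NC. The sh4 libraries were the highest and the sh1 libraries the lowest, with no overlap between any of the groups. It rose in sh4 by a log2 fold change of 0.81 (SE 0.06, limma adjusted p = 5.32e-08) and fell in sh1 by 0.37 on the same scale (SE 0.06, adjusted p = 7.85e-05). The change in sh4 was larger than that of most IDs, since 17.2% of those tested had a larger one, while 48.2% had a larger one than Wnt5a in sh1.

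Wnt9a (ENSMUSG00000000126) encodes a ligand with known roles in joint and skeletal development, where it can act through beta-catenin. It was far scarcer than Wnt5a. Its level was 0.78 and 0.82 FPKM in sh4 from 48 and 50 reads, 0.67 and 0.90 FPKM in sh1 from 37 and 53 reads, and 1.83 and 2.27 FPKM in NC from 96 and 116 reads. Both NC libraries stood above all 4 sh4 and sh1 libraries. The log2 fold change was -0.76 in sh4 and -0.77 in sh1 (SE 0.14 for both, limma adjusted p = 0.00027 and 0.00024). Because this gene entered the test only through NC, a lower level elsewhere was built in, and the calls are given as a description. On a scale that compresses low values less, with a pseudocount of 0.1, the changes were -1.25 and -1.29.

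Lrp6 (ENSMUSG00000030201) encodes the co-receptor that passes the Wnt signal to the destruction complex. Its length, inferred when whole reads were recovered, was the longest of the set at 13672 bp. Its level was 9.30 and 9.93 FPKM in sh4, 8.59 and 8.30 FPKM in sh1, and 13.6 and 13.3 FPKM in NC. The NC libraries were the highest, followed by sh4 and then sh1, without overlap. Lrp6 fell by 0.44 on the log2 scale in sh4 (SE 0.05, limma adjusted p = 3.50e-06) and by 0.61 in sh1 (SE 0.05, adjusted p = 1.49e-07).

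Ctnnb1 (ENSMUSG00000006932), which encodes beta-catenin, was among the most abundant transcripts in the libraries. By mean level it ranked 182 among the 21536 IDs above 0 in sh4, 174 among 22294 in sh1 and 273 among 22315 in NC. Its level was 229.9 and 219.8 FPKM in sh4, 246.6 and 249.6 FPKM in sh1, and 146.1 and 138.3 FPKM in NC. All 4 sh4 and sh1 libraries were above both NC libraries, and the sh1 libraries were above the sh4 libraries. It rose by a log2 fold change of 0.66 in sh4 (SE 0.04, limma adjusted p = 1.57e-08) and of 0.80 in sh1 (SE 0.04, adjusted p = 2.07e-09), which correspond to 1.58-fold and 1.74-fold. The summed reads behind these values were 42989 in sh4, 44221 in sh1 and 22994 in NC, so counting error was small.

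Tcf7 (ENSMUSG00000000782) and Lef1 (ENSMUSG00000027985) encode members of the TCF/LEF family, through which beta-catenin reaches DNA, and both are known for their roles in T cells and in embryonic development. Tcf7 was at 12.4 and 11.98 FPKM in sh4, 5.81 and 5.38 FPKM in sh1, and 10.6 and 12.8 FPKM in NC. The sh1 libraries lay apart from the rest, and the sh4 libraries lay between the NC libraries. Tcf7 fell by 0.94 on the log2 scale in sh1 against NC (SE 0.09, limma adjusted p = 7.14e-07). In sh4 the difference from NC was 0.06, with a 95% interval from -0.14 to 0.25 (adjusted p = 0.59), and without NC replicate 1 it was -0.07.

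Lef1 was close to the limit of detection. It had 5 and 4 reads in sh4, 2 and 13 in sh1, and 12 and 10 in NC, which is 0.031 and 0.025 FPKM in sh4, 0.014 and 0.084 FPKM in sh1, and 0.086 and 0.074 FPKM in NC. In FPKM, the sh1 libraries lay on either side of the sh4 libraries and of NC replicate 2, and both were below NC replicate 1. The sh4 libraries were below the NC libraries. By summed reads, the level in sh4 was 0.35 times that in NC (95% interval 0.14 to 0.78), and that in sh1 was 0.62 times (0.30 to 1.25). Such intervals cover counting error only. No comparison of Lef1 passed the threshold, either by limma without a filter (smallest adjusted p = 0.46, for sh4 against NC) or by voom without a filter (smallest adjusted p = 0.12, for sh4 against NC).

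Axin2 (ENSMUSG00000000142) encodes a scaffold of the destruction complex and is itself a widely used readout of beta-catenin activity, since its own transcription answers to the pathway. It had 110 and 93 reads in sh4, 39 and 53 in sh1, and 30 in each NC library. In FPKM these are 1.08 and 0.92 in sh4, 0.42 and 0.55 in sh1, and 0.35 and 0.36 in NC. The sh4 libraries were the highest without overlap, and the sh1 libraries lay above those of NC. By summed reads the level in sh4 was 2.86 times that in NC (95% counting interval 2.13 to 3.88), and that in sh1 was 1.39 times (0.99 to 1.96).

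By voom on the recovered reads without a filter, the log2 fold change of Axin2 was 1.49 in sh4 against NC (SE 0.30, adjusted p = 0.00026). In that comparison 39.8% of the 25747 IDs were called. It was 0.46 in sh1 (SE 0.34, adjusted p = 0.34, 95% interval -0.24 to 1.15), where 36.4% were called. By limma on log2(FPKM + 1) without a filter, the change was 0.57 in sh4 (adjusted p = 0.0058, with 33.1% of the IDs called) and 0.14 in sh1 (adjusted p = 0.28, with 31.8% called). The call in sh4 was lost without NC replicate 1 (0.56, adjusted p = 0.051) and without NC replicate 2 (0.57, adjusted p = 0.052).

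Nkd1 (ENSMUSG00000031661) encodes an inhibitor that binds Dishevelled and, like Axin2, is induced by the pathway in many tissues. It had 18 and 26 reads in sh4, 4 and 0 reads in sh1, and 11 and 13 reads in NC. Its level was 0.21 and 0.31 FPKM in sh4 and 0.15 and 0.19 FPKM in NC. In sh1 it was 0.053 FPKM in replicate 1 and listed at 0 in replicate 2, where a floor of 3 reads would be 0.037 FPKM. The sh1 libraries were the lowest and the sh4 libraries the highest, without overlap.

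By summed reads, Nkd1 in sh4 was 1.55 times the level in NC (95% counting interval 0.92 to 2.66) and in sh1 0.15 times (0.038 to 0.44). The fall in sh1 rested on 4 and 0 reads in the sh1 libraries. It passed the threshold by voom without a filter (adjusted p = 0.0033), where 36.4% of IDs were called. It also passed by limma with a pseudocount of 0.1 and no filter (-1.12, adjusted p = 0.040). By limma on log2(FPKM + 1) without a filter it did not (-0.19, adjusted p = 0.12, with 31.8% of IDs called). The limma call thus depended on the pseudocount. In sh4 neither voom nor limma on log2(FPKM + 1) passed, with adjusted p = 0.43 by voom and 0.35 by limma. A voom fold change at so few reads depends on the small number added to each count and is not given.

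**Figure D2:**
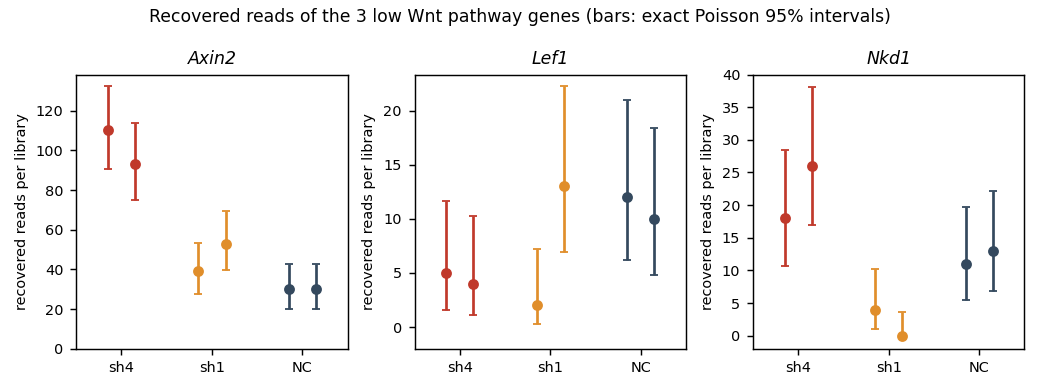
Recovered reads per library (y axis) of Axin2, Lef1 and Nkd1 by group (x axis), with points for libraries and bars for exact Poisson 95% intervals, which cover counting error only. Axin2 has 110 and 93 reads in sh4 against 30 in each NC library, Lef1 has at most 13 reads in any library, and Nkd1 has 4 and 0 reads in sh1.

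Myc and Ccnd1 are classic beta-catenin target genes in colon cancer cells, and both also answer to many other growth signals. Myc (ENSMUSG00000022346) encodes a transcription factor that drives growth and metabolism. Its level was 97.6 and 99.5 FPKM in sh4, 85.4 and 88.5 FPKM in sh1, and 154.9 and 160.3 FPKM in NC. All 4 sh4 and sh1 libraries were below both NC libraries, and sh1 was below sh4. Myc fell by 0.67 on the log2 scale in sh4 (SE 0.04, limma adjusted p = 1.64e-08) and by 0.85 in sh1 (SE 0.04, adjusted p = 1.48e-09), to 0.63 and 0.55 times the NC level.

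Ccnd1 (ENSMUSG00000070348) encodes cyclin D1, which carries cells from G1 towards DNA replication. Its level was 243.0 and 232.6 FPKM in sh4, 104.7 and 107.2 FPKM in sh1, and 161.4 and 158.1 FPKM in NC. The groups did not overlap, with sh4 above NC and sh1 below it. Ccnd1 rose by a log2 fold change of 0.57 in sh4 (SE 0.04, limma adjusted p = 4.18e-08) and fell by 0.59 in sh1 (SE 0.04, adjusted p = 2.79e-08). The 2 targets thus moved together in sh1 and apart in sh4.

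**Figure D3:**
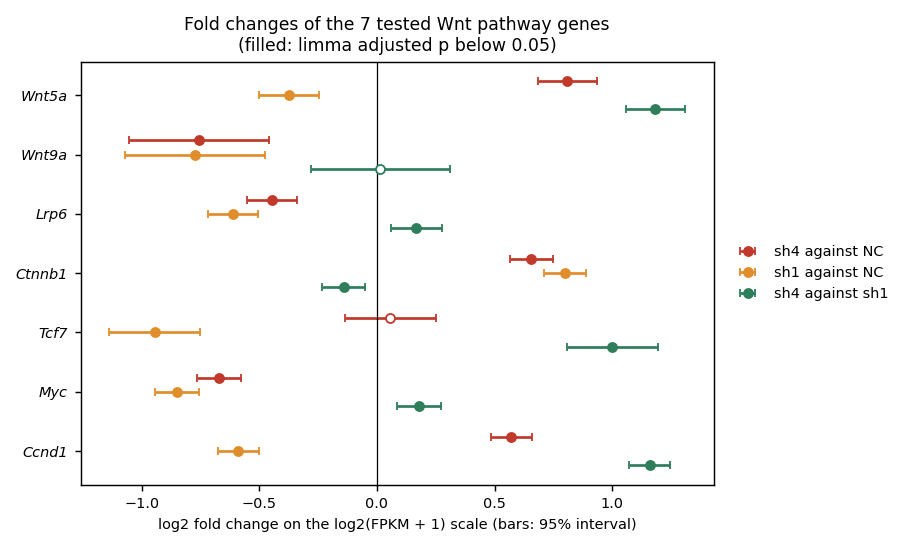
Log2 fold change on the log2(FPKM + 1) scale (x axis) of the 7 tested genes (rows) in 3 comparisons, with points for the estimates, bars for 95% intervals and filled points for limma adjusted p below 0.05. Ccnd1 and Wnt5a lie on opposite sides of 0 in sh4 and sh1 against NC, and the open points are Tcf7 in sh4 against NC (0.06) and Wnt9a in sh4 against sh1 (0.02).

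The direct comparison of sh4 with sh1 tests whether these groups differed. Wnt5a, Ccnd1 and Tcf7 differed by at least 1 log2 unit and were all higher in sh4. Their log2 fold changes were 1.18 for Wnt5a (SE 0.06, limma adjusted p = 2.07e-09), 1.16 for Ccnd1 (SE 0.04, adjusted p = 7.73e-11) and 1.00 for Tcf7 (SE 0.09, adjusted p = 6.67e-07). Tcf7 was below 1 log2 unit without sh1 replicate 2 (0.95) and without sh4 replicate 1 (0.98). In this comparison 56.0% of all IDs were called, 29.5% as higher and 26.4% as lower in sh4, and 6.34% were called with at least 1 log2 unit. Fewer than 1 in 10 IDs had a larger difference than any of these genes, with 4.29% for Wnt5a, 4.58% for Ccnd1 and 6.66% for Tcf7.

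Smaller differences were found for Myc, Lrp6 and Ctnnb1, and their sizes depended on the scaling. With libraries scaled to total reads, Myc was higher in sh4 by 0.26 and Lrp6 by 0.24. With the same FPKM sum these were 0.30 and 0.28, and both calls were kept under either scaling. The values that follow are with the authors' scaling. Myc was higher in sh4 by 0.18 (SE 0.04, limma adjusted p = 0.0031), a call lost without sh1 replicate 1 (0.15, adjusted p = 0.055). Lrp6 was higher in sh4 by 0.17 (SE 0.05, adjusted p = 0.011), a call lost without sh1 replicate 2 (0.15, adjusted p = 0.10) and without sh4 replicate 2 (0.13, adjusted p = 0.066), and also without a variance trend (adjusted p = 0.056).

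Ctnnb1 was lower in sh4 than in sh1 by a log2 fold change of -0.14 (SE 0.04, limma adjusted p = 0.011). That difference rested on the scaling. With libraries scaled to their total reads it was -0.06 (adjusted p = 0.20), and scaled to the same FPKM sum it was -0.02 (adjusted p = 0.78). The call was also lost with no filter (adjusted p = 0.060), with no variance trend (adjusted p = 0.091), and without sh1 replicate 1 (-0.15, adjusted p = 0.068), sh1 replicate 2 (-0.13, adjusted p = 0.10) or sh4 replicate 2 (-0.11, adjusted p = 0.051). Wnt9a did not pass the threshold between sh4 and sh1, with a difference of 0.02 and a 95% interval from -0.28 to 0.31 (adjusted p = 0.94).

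Both feedback inhibitors were higher in sh4 than in sh1 by their reads. Axin2 in sh4 was 2.06 times its level in sh1 by summed reads (95% counting interval 1.60 to 2.66), with a voom log2 fold change of 1.04 (SE 0.26, adjusted p = 0.0031, with 31.3% of IDs called). By limma without a filter it was 0.43 (adjusted p = 0.018, with 24.6% of IDs called), a call lost when any 1 library other than sh4 replicate 2 was left out, with adjusted p between 0.054 and 0.080, and with only the 2 groups in the fit (adjusted p = 0.068). Nkd1 in sh4 was 10.3 times its level in sh1 (3.73 to 39.3), from 44 and 4 reads in sum (voom adjusted p = 0.00052). By limma without a filter Nkd1 differed by 0.30 (adjusted p = 0.043), a call lost when any 1 of the 6 libraries was left out (adjusted p from 0.061 to 0.13), with the replicate block (adjusted p = 0.083), with only the 2 groups in the fit (adjusted p = 0.087) and with the trend on mean log2(FPKM + 1) (adjusted p = 0.052).

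**Figure D4:**
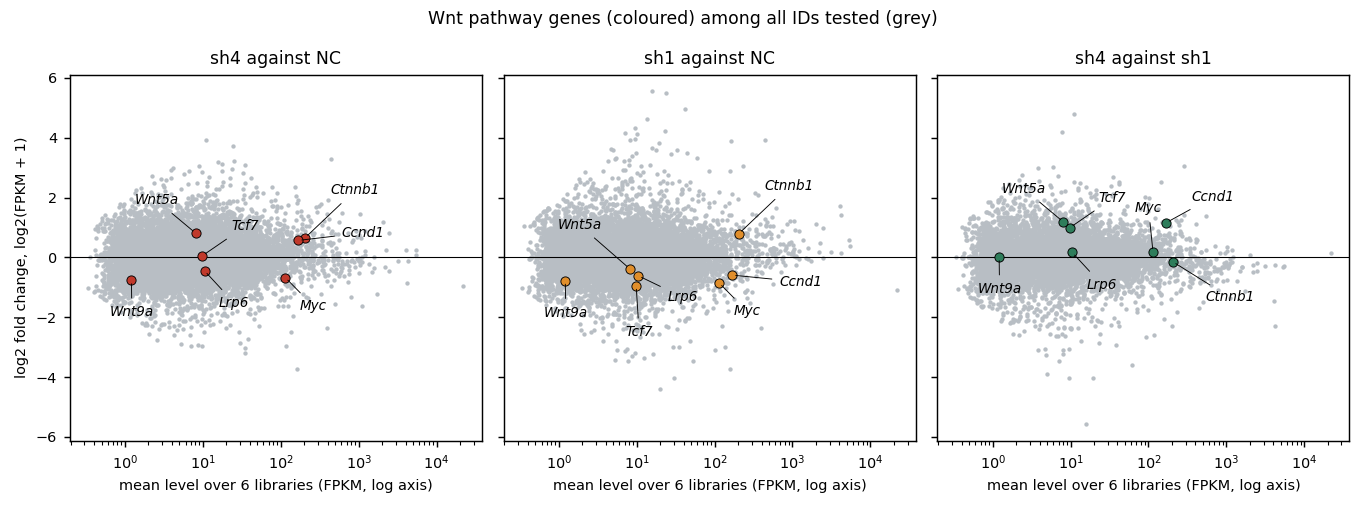
Log2 fold change on the log2(FPKM + 1) scale (y axis) against the mean level over 6 libraries in FPKM (x axis, log axis) for all 12755 IDs tested (grey) and the 7 tested Wnt pathway genes (coloured), in 3 comparisons. Wnt5a, Tcf7 and Ccnd1 stand at 1.18, 1.00 and 1.16 in sh4 against sh1, and the other 4 genes lie between -0.14 and 0.18.

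The order of the levels changed between groups at the top and in the middle of the set. In sh4 the highest were Ccnd1 (237.8 ± 7.4 FPKM) and Ctnnb1 (224.9 ± 7.2), followed by Myc (98.5 ± 1.3; mean ± SD, n = 2 each). In sh1 the order was Ctnnb1 (248.1 ± 2.1), Ccnd1 (105.9 ± 1.8) and Myc (87.0 ± 2.2). In NC, Ccnd1 (159.8 ± 2.4) and Myc (157.6 ± 3.8) did not differ beyond their spread, and Ctnnb1 (142.2 ± 5.5) was below both.

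In the middle range of sh4, Wnt5a (12.6 ± 0.39 FPKM) and Tcf7 (12.2 ± 0.31) overlapped, with Lrp6 (9.62 ± 0.44) below them. In sh1 the order was Lrp6 (8.45 ± 0.21), Tcf7 (5.60 ± 0.30) and Wnt5a (4.99 ± 0.13). In NC, Lrp6 (13.4 ± 0.20) stood above Tcf7 (11.7 ± 1.5) and Wnt5a (6.76 ± 0.26). At the low end, Axin2 (1.00 ± 0.11) was above Wnt9a (0.80 ± 0.03) in sh4 and below it in sh1 (0.49 ± 0.09 and 0.78 ± 0.17) and NC (0.35 ± 0.01 and 2.05 ± 0.32). Lef1 and Nkd1 were the lowest of the set in each group.

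Ratios of levels within a library do not depend on how libraries were scaled to each other. The ratio of Ctnnb1 to Ccnd1 was 0.946 and 0.945 in sh4, 2.36 and 2.33 in sh1, and 0.905 and 0.875 in NC. It was thus high in sh1 and nearly alike in sh4 and NC, where both genes had moved up together in sh4. The ratio of Ctnnb1 to Myc was 2.36 and 2.21 in sh4, 2.89 and 2.82 in sh1, and 0.944 and 0.863 in NC, so it was high in all 4 sh4 and sh1 libraries. Ccnd1 over Myc was 2.49 and 2.34 in sh4, 1.23 and 1.21 in sh1, and 1.04 and 0.986 in NC.

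The balance of the 2 ligands differed as well. Wnt5a over Wnt9a was 15.8 and 15.7 in sh4, 7.64 and 5.41 in sh1, and 3.60 and 3.06 in NC. Wnt9a passed the filter through NC alone, so a higher ratio outside NC was in part built in. Wnt5a over the co-receptor Lrp6 was 1.32 and 1.30 in sh4, 0.591 and 0.589 in sh1, and 0.484 and 0.522 in NC. The ratio of Axin2 to Ctnnb1 was 0.0047 and 0.0042 in sh4, 0.0017 and 0.0022 in sh1, and 0.0024 and 0.0026 in NC. Axin2 RNA was thus higher relative to Ctnnb1 RNA in the sh4 libraries than in the others, which does not measure pathway activity. These ratios are descriptions and were not tested.

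**Figure D5:**
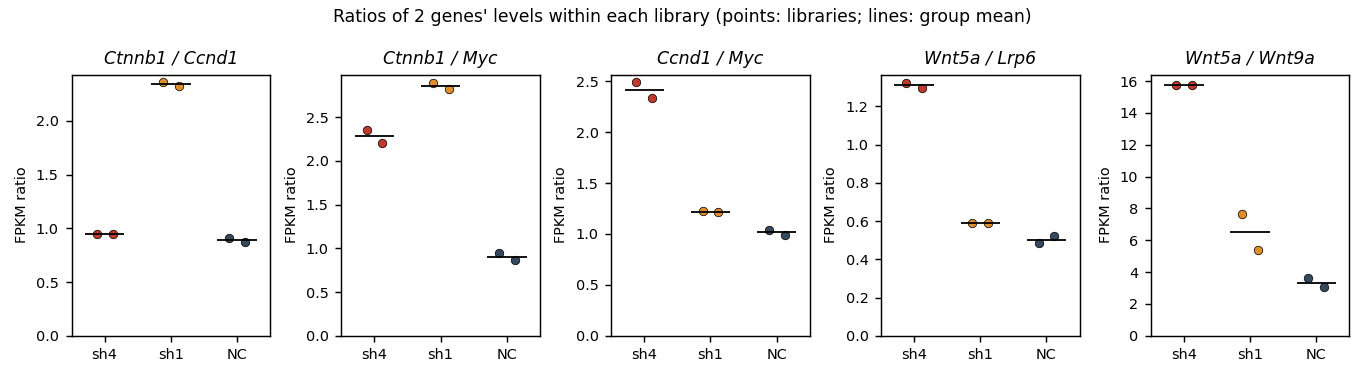
Ratio of the FPKM levels of 2 genes within each library (y axis, from 0) by group (x axis), with points for libraries and lines for the group mean. Ctnnb1 over Ccnd1 is 2.36 and 2.33 in sh1 and below 1 in sh4 and NC, while Ctnnb1 over Myc is above 2 in all sh4 and sh1 libraries and below 1 in NC.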

How the data were processed

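The members, lists and tests were chosen with earlier results of these data known. The deposited files hold the authors' FPKM values, 1 per gene ID and library. HISAT2 2.0.5 and the build hg18 are recorded in the submitters' processing notes. Counter, annotation, strand setting and scaling are not stated there, so reads of an overlapping antisense gene cannot be told apart. Whole reads were recovered by finding the value of 1 read per library and a whole length per ID, which rebuilt all 25747 IDs above 0 within 1e-06 FPKM plus 1e-07 of the value. The libraries' denominators matched size factors by median of ratios. Log2(FPKM + 1) was tested with limma 3.58.1 (R 4.3.3), a scale that understates changes of low genes, for the 12755 IDs that reached 1 FPKM in 2 libraries or more. All 6 libraries entered 1 fit with a robust variance trend on mean reads, adjusted over all IDs (Benjamini-Hochberg, 0.05). Scripts were tested on simulated data. The named genes are the 10 members. Of 126 symbols on the pathway and marker lists, 0 matched an ID. Alternatives, with 1 added test (voom over IDs with 10 reads in 2 libraries), are given at the end. Chi-square per ID between replicates was 4.37 for sh4, 2.51 for sh1 and 4.59 for NC, above counting noise, so none was a repeated library.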

Additional observations from a re-analysis of the deposited data

Results flagged for a closer look

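The sh4 and sh1 libraries differed in limma's direct test for 6 of the 7 tested genes, where 56.0% of the 12755 IDs were called. The calls of Myc, Lrp6 and Ctnnb1 were each lost under some alternatives, among them leaving out 1 library. With no variance trend 4 members were called, where 6500 of the 12755 IDs were called. The difference in log2 fold change, sh4 less sh1, was 1.18 for Wnt5a, 1.16 for Ccnd1 and 1.00 for Tcf7. Wnt5a and Ccnd1 were called in opposite directions against NC, higher in sh4 and lower in sh1. The difference was 0.18 for Myc and 0.17 for Lrp6, both lower than NC in both groups, and -0.14 for Ctnnb1, higher than NC in both. The labels give no batch, and a difference in culture or library preparation between the groups cannot be told apart from one between sh4 and sh1.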

How the results depend on the processing

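Counts of called members and of called IDs moved by more than 1.5 times under 1 alternative only, the minimum fold. A move from 6 to 4 members in sh4 against sh1, as with no variance trend, lies at that limit and was not counted as moved. When at least 1 log2 unit was required, 0 members were called in sh4 against NC, 0 in sh1 against NC and 3 in sh4 against sh1, and 1288, 1270 and 809 of all IDs, fewer by construction. For the 6 genes at 1 FPKM or more in every library, 294 of 306 alternative results kept direction and call, 11 lost the call and 1 (Tcf7) changed direction. Wnt9a is left out of that tally, since it passed the filter through NC alone. No limma estimate changes with the filter, the variance trend, the replicate block or only the 2 groups in the fit. Leaving out a library of the group not compared does not change it either. Such alternatives could change the call but not the direction, so the tally overstates how far direction was tested. All 11 losses were in sh4 against sh1, for Ctnnb1, Lrp6 and Myc. Leaving out 1 library gave -0.067 to 0.18 for Tcf7 in sh4 against NC and -0.081 to 0.11 for Wnt9a in sh4 against sh1. For Lef1 it gave -0.092 to 0.0049 in sh1 against NC and -0.077 to 0.020 in sh4 against sh1. None of these was called, and the cause was not tested. With the replicate block, 8836 IDs were called in sh4 against NC, 8508 in sh1 against NC and 7345 in sh4 against sh1, and no call of the 7 tested genes changed. Same-numbered libraries deviated with correlations of 0.12 (sh4 and NC), -0.01 (sh1 and NC) and -0.02 (sh4 and sh1), so the numbers were not taken as pairs. Where a group was left with 1 library, that library was assumed to vary like the other groups. Voom over IDs with 10 reads in at least 2 libraries, chosen after seeing the data, made the same calls for Axin2, Lef1 and Nkd1 as voom without a filter (Axin2 in sh4 against NC 1.49, adjusted p = 5.29e-05). Depth limits Lef1 and Nkd1, with at most 26 reads in a library.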
